A study of Mus musculus with 9 samples.

Results

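The inhibitory receptor system of macrophages was followed by ribosome profiling (RiboSeq), the sequencing of ribosome-protected mRNA fragments, through 10 genes: the receptors Cd72, Pirb, Sirpa, Pilra, Cd300a, Fcgr2b, Clec12a and Siglece and the phosphatases Ptpn6 (SHP-1) and Inpp5d (SHIP-1). They were found by symbol among 16921 genes, and all 10 had a mean fitted footprint count of at least 10, as did 10103 genes in all. Cd72 was picked because of its low value with wild-type TTP, so that its values are given as a description without a test in any comparison, while the other 9 were chosen by function with earlier results of these data in view.

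Receptors of this kind carry tyrosine motifs in their cytoplasmic tails (ITIMs). When a ligand engages the receptor, Src family kinases phosphorylate these motifs and phosphatases such as SHP-1, which acts on proteins, or SHIP-1, which acts on a phosphoinositide lipid, are recruited and dampen signals from neighbouring activating receptors. In macrophages such receptors are known for limiting phagocytosis, Fc receptor signalling and responses to bacterial products, and CD72 is otherwise best known from B cells. TTP (tristetraprolin, gene Zfp36) binds AU-rich elements in 3′UTRs and lowers the stability and translation of the bound mRNAs, and the kinase MK2 phosphorylates it after a stimulus such as LPS. The study that made these data proposes that this phosphorylation inactivates TTP. For a mutant without the MK2 sites (TTP-AA), it reports more binding to 3′UTRs than for wild-type TTP after 1 h of LPS.

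All 9 libraries came from bone marrow-derived macrophages (BMDMs) of TTP-deficient mice that had been immortalized with the oncogenes c-Myc and H-Ras G12V and were positive for CD11b and F4/80. The cells carried a doxycycline-inducible vector for GFP alone (labelled GFP/EV, here GFP-only), for wild-type TTP fused to GFP (GFP–TTP) or for the fusion to a mutant without its MK2 phosphorylation sites (GFP–TTP-AA), with 3 libraries per group. Every library, controls included, was made after doxycycline (1 µg/ml) for 6 h and LPS (1 µg/ml) for 1 h, so that no unstimulated cells were compared. Each group is a separately transduced line, and differences between lines cannot be told apart from differences between constructs. Per the study's methods, bone marrow was taken from mice at 6 weeks of age.

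The values per library are those that the authors' DESeq2 model fitted, with a term for the condition and a term for the replicate of each gene, and not observed counts. Here they were divided by library size factors, and the geometric mean over the 3 libraries of a group is called the level. Since the replicate pattern of a gene is the same in every group by construction, the 3 values show the fitted differences between replicates, and the error of a fold change is the deposited standard error (SE). Whether the values of groups overlap depends only on the fold change and the replicate range of the gene. Overlap or its absence is given below as a description and is no measure of error. Fold changes and SEs were shrunken towards 0 by that model, most for genes with few footprints such as Pirb and Siglece. The fitted counts summed to between 2570292 and 12804501 per library. Zfp36 had fitted counts of 443, 436 and 500 in GFP-only, 897, 882 and 1008 in GFP–TTP, and 1487, 1456 and 1671 in GFP–TTP-AA. Footprints on the constructs are counted with those on the gene. The GFP-only cells carry no TTP construct and are labelled TTP-deficient, so that these footprints go against a complete absence of Zfp36 reads there, and which part of the gene the deletion removed was not examined. A lower footprint level can come from less mRNA or from fewer ribosomes on it, which cannot be told apart here.

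Of the markers, 7 of 8 macrophage genes had a mean of at least 10, and they summed to a level of 93711 in the control, 73983 with wild-type TTP and 106471 with the mutant. The libraries ranged from 85598 to 104471, from 67811 to 81956 and from 97027 to 119253, respectively. Among these 7 genes, 3 were lower in GFP–TTP than in GFP-only (Wald test, adjusted p under 0.05), against 1.29% of all genes tested. In GFP–TTP-AA, 1 was higher than in GFP-only, against 1.74% of all genes, and 3 were higher than in GFP–TTP, against 5.59%. Lyz2 made up most of these sums, and without it they were 29676, 27950 and 35106 in the same order of groups. Single markers differed in their order. Adgre1 (3663, 2292 and 5340), Csf1r, Cd68 and Lyz2 were lowest with wild-type TTP and highest with the mutant. Adgre1 was lower in GFP–TTP than in GFP-only (log2 fold change −0.68, Wald test, adjusted p = 0.0027). In GFP–TTP-AA it was higher than in GFP-only (0.54, adjusted p = 0.029) and than in GFP–TTP (1.22, adjusted p = 5.3e-12). Itgam (2968, 3190 and 3188) and Cd14 (9538, 10297 and 11914) had their lowest level in GFP-only and Fcgr1 (129, 67.2 and 110) its highest. The sums were lowest with wild-type TTP and highest with the mutant, as were the levels of Cd72, Pirb, Siglece, Pilra, Sirpa and Ptpn6, and the part of the markers' shift in those values was not tested. Fewer cells of a kind and less RNA per cell cannot be told apart in such samples. Of 7 B cell markers, 3 were listed and their summed level was between 10.4 and 15.7, with Cd79a and Ms4a1 below 1 in every group. Most of it was Cd22 (14.4, 9.61 and 14.9 in the same order of groups), which passed the threshold in no comparison. Cd22 is also counted among the inhibitory receptors below. T cell markers summed to at most 7.69 (2 of 4 listed) and neutrophil markers to 27.2, 25.7 and 56.0 in the same order of groups (2 of 5 listed), nearly all of it S100a8, which was higher in GFP–TTP-AA in both comparisons.

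The AU-rich elements bound by TTP have the core ATTTA, and its extended form TATTTAT is a preferred site. The sequences below show the longer form in the 3′UTR of the 3 genes that held it, because the groups differ in TTP and these letters are what TTP is known to bind. They were read from GRCm38 on the strand of the gene with the heptamer in capitals.
Pirb, chr7:3711816-3711840 (minus strand): gatatatttTATTTATgtgtagtat
Pilra, chr5:137823154-137823178 (minus strand): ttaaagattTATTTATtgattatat
Cd300a, chr11:114901945-114901969 (plus strand): aagattattTATTTATtatatgtaa
Cd300a, chr11:114902395-114902419 (plus strand): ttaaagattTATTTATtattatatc
The heptamer began 820 nucleotides after the stop codon in Pirb, 303 in Pilra, and 664 and 1114 in Cd300a, whose 3′UTR held 3 heptamers in all, the remaining one overlapping the first printed one. Each heptamer also holds the pentamer.

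Of the other genes, Fcgr2b held 2 pentamers and Sirpa and Ptpn6 1 each, without a heptamer. No match to either motif was present in the longest annotated 3′UTR of Cd72 (1580 nucleotides), Clec12a (1241), Siglece (416) or Inpp5d (1184). Among 9934 expressed genes with an annotated 3′UTR, 70.6% held the pentamer and 30.6% the heptamer. Among the 1662 of them with a 3′UTR of similar length to that of Cd72, 86.2% held the pentamer. A match describes these letters only, and shorter or different 3′UTRs of the same genes may be used in these cells. The 3′UTR read for Cd72 was joined from 2 exons, and those of its other transcripts were not examined.

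**Figure D1:**
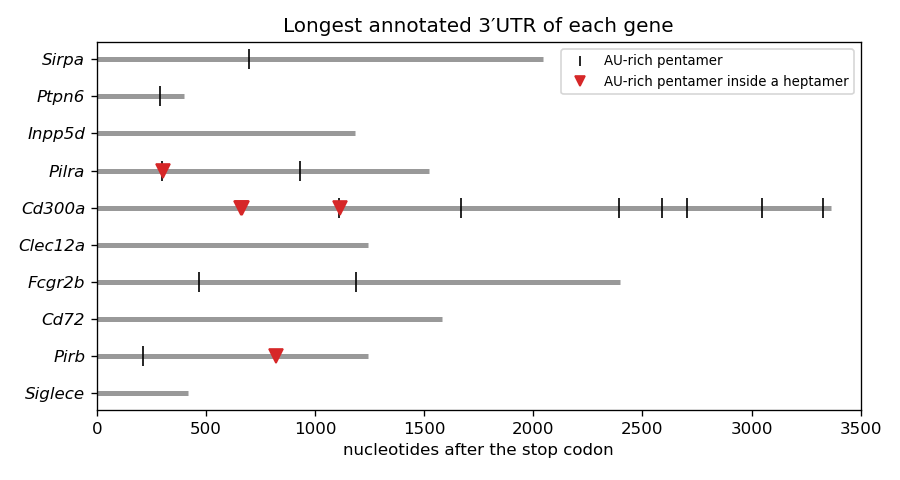
Longest annotated 3′UTR of the 10 genes, drawn to scale in nucleotides after the stop codon (x axis), with AU-rich pentamers as ticks and those inside a heptamer as triangles. Cd300a holds 10 pentamers, while Cd72, Clec12a, Siglece and Inpp5d hold none.

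Cd72, a type II membrane protein with an ITIM and a lectin-like domain, lies on chromosome 4 (43446462 to 43454628, minus strand). Its fitted footprint count was 483, 426 and 392 in the 3 GFP-only libraries and 111, 97.4 and 89.4 in the GFP–TTP libraries. In GFP–TTP-AA it was 563, 495 and 455. All GFP–TTP values lay far below those of the other groups, while the values of GFP–TTP-AA and GFP-only overlapped.

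The level of Cd72 was thus 4.37-fold lower in GFP–TTP than in GFP-only (log2 fold change −2.13, SE 0.19), and only 3 of the 10103 expressed genes had a lower fold change in this comparison. This is the value for which Cd72 was picked. GFP–TTP-AA against GFP-only gave a log2 fold change of 0.22 (SE 0.18, 95% interval −0.14 to 0.57). Between both TTP forms, Cd72 was 5.09-fold higher in GFP–TTP-AA (log2 fold change 2.35, SE 0.19). These comparisons share libraries and are not independent of the choice of the gene.

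The region around Cd72 was examined because each group is a line of its own. Of the 23 expressed genes that start within 1 Mb of the start of Cd72, the log2 fold changes between GFP–TTP and GFP-only ranged from −0.49 to 0.38 with a median of −0.04. Between GFP–TTP-AA and GFP-only they ranged from −0.40 to 0.42 with a median of −0.02. Tesk1, a kinase gene on the opposite strand that overlaps Cd72, had a log2 fold change of 0.06 for GFP–TTP and −0.14 for the mutant against GFP-only. In GFP–TTP against GFP-only, none of these neighbours came near the value of Cd72. Cd72 was picked for that value, which few expressed genes reach anywhere, so that such a gap was likely for any set of neighbours. In GFP–TTP-AA against GFP-only, Cd72 lay within their range. Whether reads were counted by strand is not given in the sources used here, so that reads in such overlaps, which the annotation also shows for Pilra with Zcwpw1 and for Fcgr2b and Ptpn6 with an antisense RNA each, could belong to either gene.

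**Figure D2:**
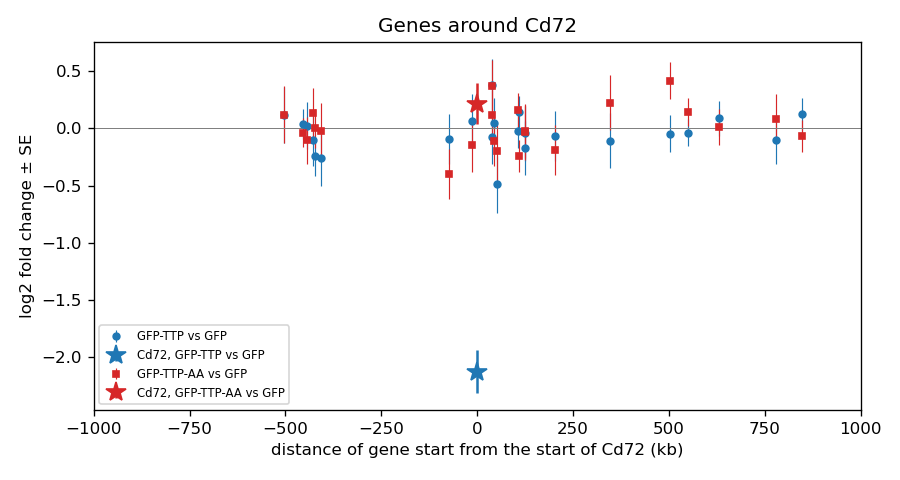
Log2 fold change ± SE (y axis) of Cd72 (stars) and of the 23 expressed genes starting within 1 Mb of it, against the distance between gene starts in kb (x axis), for GFP–TTP (blue) and GFP–TTP-AA (red), each against GFP-only. Cd72 in GFP–TTP stands at −2.13, the value for which it was picked, and its neighbours lie between −0.49 and 0.38.

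By the Euclidean distance of the fold changes of both TTP forms against GFP-only, the genes most like Cd72 among 8438 genes with a mean of at least 50 included Sp100, Cpq, Slfn5 and Tubb2a. Sp100, a nuclear body protein, had levels of 140 (GFP-only), 41.3 (GFP–TTP) and 170 (GFP–TTP-AA). Cpq, a carboxypeptidase, had levels of 119, 26.1 and 102 in the same order. Slfn5 (109, 35.9 and 153) and Tubb2a, a beta-tubulin (140, 48.5 and 163), came after them, a likeness that rests on 3 groups and on the same libraries. The nearest of the other receptor and phosphatase genes was Siglece, at a distance of 1.46 compared with 0.38 for Sp100.

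**Figure D3:**
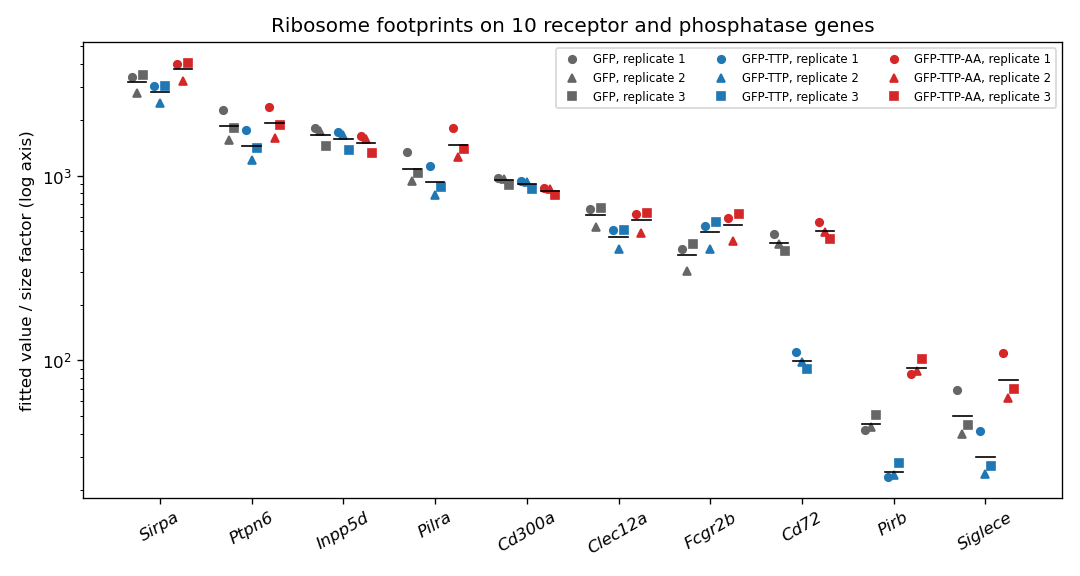
Fitted footprint count divided by the size factor (y axis, log scale) of the 10 genes in the 9 libraries, with symbols for replicates, colours for groups and a black line at the level of each group. The GFP–TTP values of Cd72 lie between 89.4 and 111 and those of the other groups between 392 and 563.

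Among the 9 genes other than Cd72, 1 passed the test in GFP–TTP against GFP-only, and it was lower. Over all genes, 2.10% of 9938 tested passed in this comparison, 0.815% higher and 1.29% lower (Wald test, Benjamini-Hochberg adjusted p under 0.05). The fold changes were negative in 8 of the 9, with a median of −0.24 on the log2 scale, compared with 0.003 over all genes tested. In GFP–TTP-AA against GFP-only, 1 of 9 passed and was higher, against 3.02% of 10103 genes (1.74% higher, 1.28% lower). The median was 0.22. In GFP–TTP-AA against GFP–TTP, 5 of 9 passed, all higher, against 10.3% of 10103 genes (5.59% higher, 4.66% lower), and the median log2 fold change was 0.40. When p-values were adjusted over the 3 comparisons together, 3 of 9 passed, without Sirpa and Ptpn6. The share of all genes that passed under that adjustment was not counted. Over all genes tested the medians were 0.004 in GFP–TTP-AA against GFP-only and 0.003 in GFP–TTP-AA against GFP–TTP. The 9 genes were chosen with earlier results of these data in view, and the comparisons share libraries. The shares over all genes are thus set beside theirs as a description only.

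**Figure D4:**
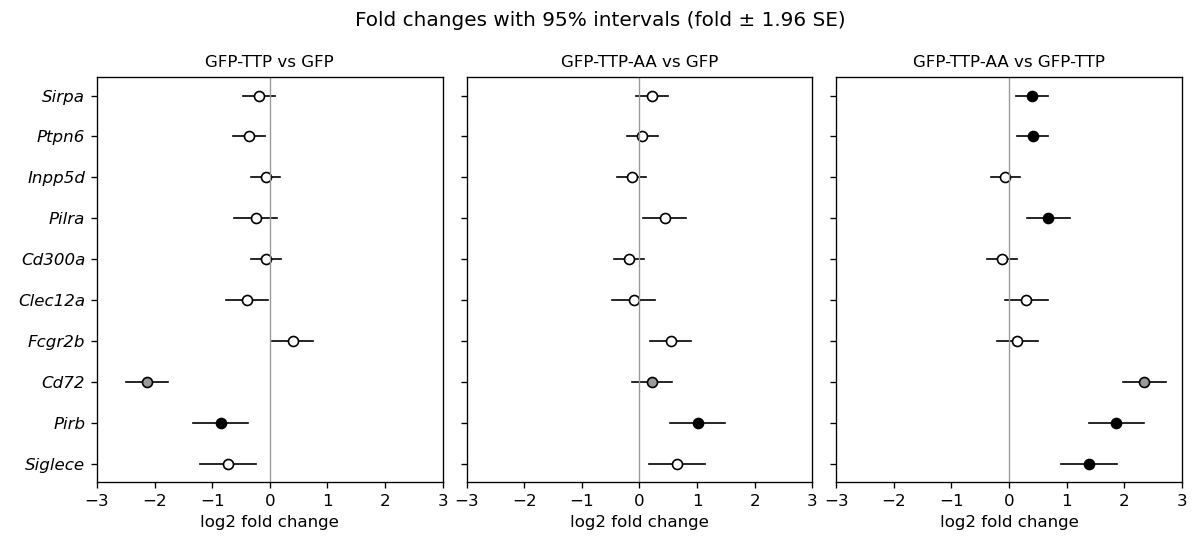
Log2 fold changes of the 10 genes (x axis) with 95% intervals in the 3 comparisons, with filled circles for genes past the threshold, open circles for genes not past it and grey circles for Cd72, which was not tested. In GFP–TTP-AA against GFP–TTP, Pirb, Siglece, Pilra, Ptpn6 and Sirpa are past the threshold, all on the positive side.

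Pirb, the paired immunoglobulin-like receptor B that binds MHC class I molecules, lies on chromosome 7 (3711409 to 3720391, minus strand). Its fitted count was 41.9, 43.5 and 50.7 in GFP-only, 23.2, 24.1 and 27.9 in GFP–TTP, and 84.6, 87.3 and 102 in GFP–TTP-AA. The level was lowest in GFP–TTP and highest in GFP–TTP-AA.

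Of the 9 genes tested, Pirb alone passed the threshold in all 3 comparisons. Pirb was 1.81-fold lower in GFP–TTP than in GFP-only (log2 fold change −0.85, SE 0.25, adjusted p = 0.029) and 2.01-fold higher in GFP–TTP-AA than in GFP-only (1.01, SE 0.24, adjusted p = 0.0031). Between the TTP forms the fold was 3.63 (log2 fold change 1.86, SE 0.24, adjusted p = 5.98e-12). The mean fitted count of 53.9 was low, its SEs were close to the largest in the tables (0.25), and with 10 counts added to the levels the last fold change was 1.53 on the log2 scale. Its activating relative Pira2, with which reads could be shared, had a mean of 4.06.

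Siglece, a sialic acid-binding lectin, lies on chromosome 7 (43651070 to 43660161, minus strand). It had fitted counts of 69.0, 40.1 and 44.7 in GFP-only, 41.7, 24.1 and 26.9 in GFP–TTP, and 109, 62.9 and 70.2 in GFP–TTP-AA. The libraries of replicate 1 were the highest, and this spread between replicates (0.79 on the log2 scale) was the widest of the 10 genes. Only GFP–TTP and GFP–TTP-AA did not overlap. Siglece was 2.61-fold higher in GFP–TTP-AA than in GFP–TTP (log2 fold change 1.39, SE 0.25, adjusted p = 1.78e-06). Against GFP-only, the log2 fold changes of −0.73 in GFP–TTP (SE 0.25, adjusted p = 0.10) and 0.65 in GFP–TTP-AA (SE 0.25, adjusted p = 0.13) did not pass the threshold.

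Pilra, another receptor for sialylated ligands, lies on chromosome 5 (137821952 to 137836281, minus strand). The fitted counts were 1334, 933 and 1027 in GFP-only, 1132, 789 and 867 in GFP–TTP, and 1815, 1262 and 1390 in GFP–TTP-AA. Only GFP–TTP and GFP–TTP-AA did not overlap. There, Pilra was 1.60-fold higher in GFP–TTP-AA (log2 fold change 0.68, SE 0.19, adjusted p = 0.0063). The fold changes against GFP-only were −0.24 for GFP–TTP (adjusted p = 0.70) and 0.44 for GFP–TTP-AA (adjusted p = 0.22). The activating relatives Pilrb1 and Pilrb2, with means of 39.0 each, were also higher in GFP–TTP-AA than in GFP–TTP (log2 fold changes 0.90 and 0.81, adjusted p = 0.0061 and 0.017). Zcwpw1, which overlaps Pilra on the opposite strand, had a log2 fold change of 0.02 in this comparison.

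Sirpa, the receptor for the "don't eat me" ligand CD47, lies on chromosome 2 (129592835 to 129632228, plus strand). It had fitted counts of 3432, 2797 and 3488 in GFP-only, 3035, 2466 and 3068 in GFP–TTP, and 4014, 3250 and 4057 in GFP–TTP-AA. The GFP-only values lay across those of both other groups, which did not overlap each other. Sirpa was 1.32-fold higher in GFP–TTP-AA than in GFP–TTP (log2 fold change 0.40, SE 0.14, adjusted p = 0.0493), a call at the edge of the threshold that was lost without the filter on low counts (adjusted p = 0.0501), with the median of all genes subtracted (0.0517) or with p-values adjusted over the 3 comparisons together (0.081). Neither TTP form passed against GFP-only (log2 fold changes −0.18 and 0.22, adjusted p = 0.70 and 0.52). Its relatives Sirpb1a, Sirpb1b and Sirpb1c, activating receptors of similar sequence with means of 19.7, 17.9 and 32.4, were higher in GFP–TTP-AA than in GFP–TTP by 1.35, 0.77 and 0.94 on the log2 scale (adjusted p = 4.17e-06, 0.016 and 0.0033).

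Fcgr2b, the inhibitory Fc receptor for IgG that recruits SHIP-1, lies on chromosome 1 (170958617 to 170976547, minus strand). Its fitted counts were 402, 304 and 426 in GFP-only, 531, 401 and 560 in GFP–TTP, and 586, 441 and 618 in GFP–TTP-AA. The level was lowest in GFP-only, and only GFP-only and GFP–TTP-AA did not overlap. The log2 fold changes against GFP-only were 0.40 for GFP–TTP (SE 0.18, adjusted p = 0.35) and 0.54 for GFP–TTP-AA (SE 0.18, adjusted p = 0.078), neither past the threshold. Fcgr3, the activating Fc receptor of similar sequence, had values of −0.16 and −0.28.

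Clec12a, a C-type lectin that senses dead cells, lies on chromosome 6 (129342691 to 129365303, plus strand). Its fitted counts were 662, 524 and 670 in GFP-only, 505, 398 and 508 in GFP–TTP, and 621, 488 and 625 in GFP–TTP-AA. The GFP–TTP values lay below all those of GFP-only, but the log2 fold change of −0.40 (SE 0.19, adjusted p = 0.39) did not pass. Between the TTP forms the value was 0.30 (SE 0.19, adjusted p = 0.37).

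Cd300a, a receptor for phospholipids exposed on dying cells, lies on chromosome 11 (114890041 to 114904654, plus strand). It had the narrowest spread between replicates (0.13 on the log2 scale), with fitted counts of 971, 962 and 892 in GFP-only, 930, 918 and 849 in GFP–TTP, and 857, 843 and 783 in GFP–TTP-AA. GFP–TTP-AA lay below all GFP-only values, but no comparison passed the threshold. The 95% intervals of the log2 fold changes ran from −0.33 to 0.19 for GFP–TTP and from −0.45 to 0.08 for GFP–TTP-AA against GFP-only, and from −0.38 to 0.14 between the TTP forms. Cd300a held the most AU-rich pentamers of the 10 genes (10) and had the longest 3′UTR (3364 nucleotides), and 97.3% of the genes with a 3′UTR of similar length held the pentamer, with a median of 5.

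Of the phosphatases, Ptpn6 passed in 1 comparison and Inpp5d in none. Ptpn6, which encodes SHP-1 on chromosome 6 (124720707 to 124738714, minus strand), had fitted counts of 2258, 1554 and 1817 in GFP-only, 1764, 1211 and 1412 in GFP–TTP, and 2345, 1604 and 1877 in GFP–TTP-AA. The groups overlapped because the replicates were wide apart (0.54 on the log2 scale). Ptpn6 was 1.33-fold higher in GFP–TTP-AA than in GFP–TTP (log2 fold change 0.41, SE 0.14, adjusted p = 0.037), which was lost with the median of its chromosome subtracted (0.36, adjusted p = 0.079) or with p-values adjusted over the 3 comparisons together (adjusted p = 0.061). Against GFP-only, the values were −0.36 in GFP–TTP (adjusted p = 0.21) and 0.05 in GFP–TTP-AA (adjusted p = 0.95).

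Inpp5d, which encodes SHIP-1 on chromosome 1 (87620312 to 87720507, plus strand), had fitted counts of 1798, 1745 and 1451 in GFP-only. They were 1719, 1662 and 1379 in GFP–TTP and 1643, 1584 and 1318 in GFP–TTP-AA, overlapping throughout. The log2 fold changes were −0.07, −0.14 and −0.07, with 95% intervals from −0.32 to 0.18, from −0.39 to 0.12 and from −0.32 to 0.19 in the order of comparisons used above.

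**Figure D5:**
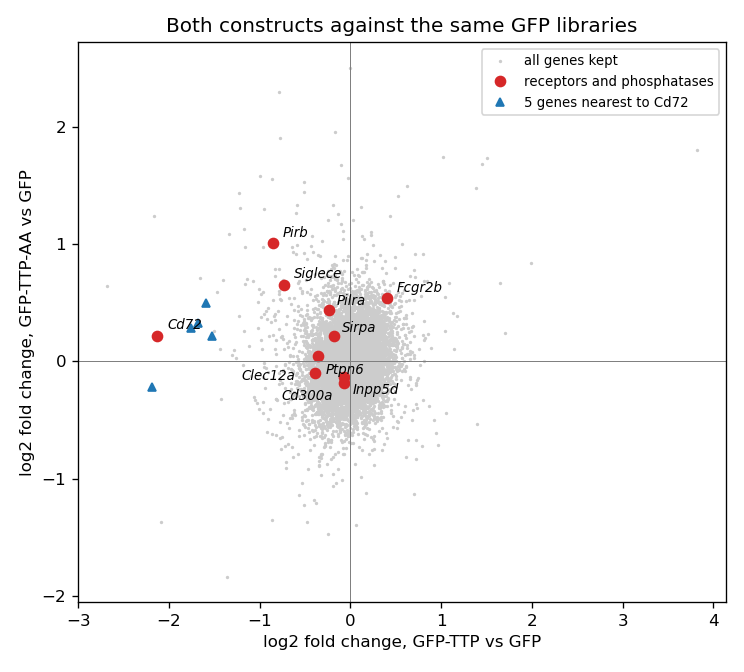
Log2 fold change in GFP–TTP (x axis) against that in GFP–TTP-AA (y axis), each against the same GFP-only libraries, for the 10103 expressed genes (grey), the 10 genes described here (red) and the 5 genes nearest to Cd72 (blue triangles). Most genes scatter around 0, while Cd72 lies at −2.13 and 0.22, and Pirb at −0.85 and 1.01.

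Other genes of the same system were counted from lists. Over all genes tested, 1.29% were lower in GFP–TTP and 1.74% higher in GFP–TTP-AA than in GFP-only. Between the TTP forms, 5.59% were higher and 4.66% lower in GFP–TTP-AA. Of 18 tested genes outside the 10, listed as inhibitory receptors without a check of their ITIMs, 2 were lower in GFP–TTP than in GFP-only. In GFP–TTP-AA, 0 passed against GFP-only, and 7 were higher than in GFP–TTP with none lower. Tnfrsf21, of the TNF receptor family, had a low mean of 25.3 and was among both the 2 lower and the 7 higher genes. The median log2 fold changes were −0.15, 0.15 and 0.43. Clec4a3, a lectin receptor of the DCIR family, had levels of 62.3, 44.4 and 78.2 in the order GFP-only, GFP–TTP, GFP–TTP-AA (0.82 between the TTP forms, SE 0.24, adjusted p = 0.013). Its relative Clec4a2 had 75.1, 64.3 and 112 (0.80, SE 0.21, adjusted p = 0.0044). 4632428N05Rik, which encodes the checkpoint receptor VISTA, was among those lower in GFP–TTP (253, 148 and 227, log2 fold change −0.77, SE 0.20, adjusted p = 0.011).

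Activating receptors and their ITAM adaptors, the signalling counterparts, gave similar counts. Of 18 tested, 2 were lower in GFP–TTP and 2 higher in GFP–TTP-AA than in GFP-only, and 7 were higher in GFP–TTP-AA than in GFP–TTP, with medians of −0.13, 0.20 and 0.36. Among the 7 were Pilrb1, Pilrb2, Sirpb1a and Sirpb1b, relatives of Pilra and Sirpa with which reads could be shared. Pilrb1 and Sirpb1a were also the 2 genes higher than in GFP-only. Fcgr1, the high-affinity Fc receptor, which is also among the macrophage markers, had levels of 129, 67.2 and 110 (GFP–TTP against GFP-only −0.95, SE 0.22, adjusted p = 0.0022). Fcer1g, the Fc receptor gamma chain, had 4409, 3296 and 4352 (−0.42, SE 0.12, adjusted p = 0.034). Fcgr4 had 637, 504 and 698 and passed between the TTP forms (0.47, SE 0.15, adjusted p = 0.029). The difference between inhibitory and activating receptors was not tested.

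Ligands of these receptors were measured in the same cells. Of 9 tested, 3 were lower in GFP–TTP than in GFP-only, 1 was higher in GFP–TTP-AA than in GFP-only, and 5 were higher in GFP–TTP-AA than in GFP–TTP, with medians of −0.25, 0.19 and 0.84. The 3 lower ones encode MHC class I chains, ligands of PIR-B. H2-K1 had levels of 1726, 1034 and 1973 (GFP–TTP against GFP-only −0.74, SE 0.14, adjusted p = 3.2e-05), and H2-D1 had 2463, 1516 and 2754 (−0.70, SE 0.16, adjusted p = 0.0021). B2m, the light chain, had 10194, 7004 and 12617 (−0.54, SE 0.15, adjusted p = 0.019). The 1 gene higher in GFP–TTP-AA than in GFP-only was Cd47, the ligand of SIRPα, named after its values were seen, with levels of 360, 302 and 542 (0.59, SE 0.18, adjusted p = 0.036). Class I genes resemble each other closely, so that reads may be shared among them.

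Among 36 tested kinases, phosphatases and adaptors downstream of the receptors, 1 was lower in GFP–TTP and 1 higher in GFP–TTP-AA than in GFP-only. Between the TTP forms 4 were higher and 1 was lower in GFP–TTP-AA. The medians were −0.05, 0.03 and 0.09. Fyb, an adaptor of integrin signalling, had 890, 738 and 1316 (between the TTP forms 0.83, SE 0.18, adjusted p = 2.4e-04). Ptpn22, a phosphatase of Src family kinases, had 108, 93.7 and 142 (0.60, SE 0.21, adjusted p = 0.042).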

How the data were processed

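The authors isolated ribosome-protected fragments (ARTseq, Ribo-Zero depletion), sequenced 50-base single-end reads, trimmed them with Trim Galore, mapped them with TopHat2 (2.0.12 per the labels) to mm10/GRCm38 with up to 2 alignments per read, counted them with HTSeq and fitted DESeq2 1.6.3 with library date and condition. The deposited signal values are what that model fitted, with 0 zeros and no residual after terms for condition and replicate (residual SD 1.64e-15 on the log2 scale), so that observed counts and depth are unknown. From the deposited comparison tables, the SE of the log2 fold change and the authors' mean normalized count were used. The authors' fold changes, Wald statistics, p-values and adjusted p-values were not used.

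From the fitted values of 16932 lines (16921 genes, 11 repeated lines, 1 without a gene name), size factors were computed by the median of ratios (0.415 to 2.12). Fold changes were differences of log2 levels. A two-sided Wald test (scipy 1.17.1) divided them by the deposited SE, adjusted by Benjamini-Hochberg over genes with a mean of at least 10, with a threshold of 0.05. In GFP–TTP against GFP-only, 165 such genes had no SE. P-values measure only what that SE holds. The labels number the libraries of each group as replicates. That each group is a single line is a reading of the study's methods. The test was tested on simulated fold changes whose errors were drawn from the deposited SEs, which checks the calculation and not those SEs.

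The genes and lists were chosen with earlier results of these data known. Named were the 10 genes, Zfp36, from each list up to 3 genes with the largest fold change past the threshold and a mean of at least 50, and the 5 genes most like Cd72. Tnfrsf21, Cd47 and the cell type markers were named outside this rule. Of the genes this rule names, 2 are not reported here. Similar and overlapping genes were chosen after the values were seen. Positions and 3′UTRs are from GENCODE vM21 on GRCm38.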

Additional observations from a re-analysis of the deposited data

How the results depend on the processing

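No paired analysis was possible because the deposited values per library are fitted and hold no replicate spread to refit, but the deposited SEs behind every test come from a fit that already held the library date. For lack of that spread leaving out each replicate was not run. Of the 9 genes other than Cd72, 5 passed between the TTP forms, and 3 passed when p-values were adjusted over the 3 comparisons together, where Sirpa (adjusted p = 0.081) and Ptpn6 (0.061) were lost. Sirpa was also lost without a filter on low counts (0.0501) and with the median of all genes subtracted (0.0517), and Ptpn6 with the median of its chromosome subtracted (0.079). In each of these cases 4 of the 9 passed. The counts against GFP-only did not change under any of these settings or with a mean of at least 50. Shares of all genes past the threshold were counted for the main setting only. With 10 added to the levels, the log2 fold change of Pirb between the TTP forms was 1.53, and the other 29 fold changes moved by less than their SE, as did all 30 with the chromosome median subtracted. No fold change reversed.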
